A study of Mus musculus with 12 samples.

Results

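The genes described here are 10 enzymes and helper proteins that make eicosanoids, the signalling lipids derived from arachidonic acid. They were taken by name as members of that family: Alox5, Alox5ap, Lta4h, Ltc4s, Ptgs1, Ptgs2, Ptges, Hpgds, Tbxas1 and Alox15. The choice was made with earlier results of these data known. All 10 were among the 23413 genes of the count table, and all 10 passed the filter on low counts, which kept 12748 genes. Alox15 passed it through the 4-week groups alone, and Ptgs2 reached at most 1.61 CPM (read counts scaled to a common library size) in every library. RNA-seq was measured in mouse alveolar macrophages, the resident phagocytes of the air spaces, to ask how vitamin D3 and its receptor act on them. The 12 libraries fell into 6 groups of 2.

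Fresh cells were lavaged from wild-type mice at 10 weeks and at 4 weeks of age, and from mice labelled as knockouts of the vitamin D receptor (VDR, gene Vdr) at the same 2 ages. The other 2 groups were wild-type cells kept for 24 h in complete RPMI medium, either untreated or with vitamin D3 at 50 nM. The labels give neither the strain nor the knockout allele, nor the age of the mice behind the cultures, nor which form of vitamin D3 was added. Nor is it said that libraries of 1 group stem from different animals or cultures, and p-values therefore reflect library-to-library spread, part of which may be technical.

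Eicosanoid synthesis begins when phospholipases free arachidonic acid from membranes. In the leukotriene branch, 5-lipoxygenase (Alox5) works with its membrane partner FLAP (Alox5ap) to make leukotriene A4, which Lta4h turns into the neutrophil attractant leukotriene B4 and Ltc4s joins to glutathione to give the cysteinyl leukotrienes. In the prostanoid branch, the cyclooxygenases Ptgs1 (COX-1) and Ptgs2 (COX-2) make prostaglandin H2, from which Ptges, Hpgds and Tbxas1 make prostaglandin E2, prostaglandin D2 and thromboxane A2. Alox15 is a separate lipoxygenase that feeds the lipoxin family. Alveolar macrophages are known as a strong source of leukotrienes in the lung.

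Total counts ran from 10409572 to 23233674 per library, so 1 count was worth at most 0.0904 CPM, and the replicates of every group differed by more than sampling noise (chi-square per degree of freedom 10.1 to 53.9 over genes). Libraries labelled knockout still held Vdr, the targeted gene, at 84.2 and 45.0 CPM (10 weeks) and 45.9 and 31.2 CPM (4 weeks). The wild-type libraries held 79.6 and 126.9 CPM at 10 weeks and 56.5 and 57.7 CPM at 4 weeks, so the first 10-week library labelled knockout lay inside the wild-type range. Its description code names wild type, and that of the second 10-week wild-type library names knockout. In culture Vdr was at 7.82 and 7.61 CPM without vitamin D3 and at 72.1 and 42.4 CPM with it. Both second 10-week libraries were female by Xist (800.3 and 787.3 CPM, against under 1 CPM in the other 10 libraries). Of 16 alveolar macrophage markers, 15 were in the table, and their summed level was 24782 to 45092 CPM in fresh cells and 19568 to 21819 CPM in culture.

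The promoters of Alox5 and Ptgs1 are shown because these genes carry the results on culture and on age. The windows cover the 250 bases upstream of the RefSeq start in GRCm38.p6. The window of Alox5 is chr6:116461179-116461428 on the minus strand, and that of Ptgs1 is chr2:36230176-36230425 on the plus strand. Both are intergenic, with no annotated exon inside. Capitals mark GAGGAA, the core bound by the macrophage lineage factor PU.1, in both, with GGGCGG, the GC box bound by Sp1, in Alox5 and GGTTCA, a half-site of the VDR-RXR dimer, in Ptgs1.
Alox5: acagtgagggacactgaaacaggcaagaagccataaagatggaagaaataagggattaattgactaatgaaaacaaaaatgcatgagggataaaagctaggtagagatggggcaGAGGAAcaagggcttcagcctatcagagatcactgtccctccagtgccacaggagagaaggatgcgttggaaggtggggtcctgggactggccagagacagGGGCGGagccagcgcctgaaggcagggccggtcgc
Ptgs1: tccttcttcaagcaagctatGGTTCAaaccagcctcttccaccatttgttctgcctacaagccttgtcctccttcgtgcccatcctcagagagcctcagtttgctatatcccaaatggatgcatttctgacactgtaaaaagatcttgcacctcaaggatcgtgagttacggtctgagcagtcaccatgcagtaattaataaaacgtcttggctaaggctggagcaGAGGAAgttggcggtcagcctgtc
The PU.1 core began 136 bases before the Alox5 start and 24 bases before the Ptgs1 start. RefSeq promoters were at hand for 8 of the 10 members, all but Alox5ap and Alox15. On both strands, GAGGAA occurred in 7 of these 8 (23.3% of 32851 promoters of the table), GGGCGG in 3 (32.7%), and TGANTCA, the AP-1 site, in 1, Tbxas1 (6.75%). The VDR half-site GGTTCA occurred in 1, Ptgs1 (8.85%), AGGTCA in none (14%), and a pair of AGGTCA 3 bases apart in none (0.00609%). Of the 8 windows, those of Ltc4s, Hpgds and Tbxas1 overlap exons of their own genes, and that of Ptges lies inside its gene. The Ptgs2 window overlaps an exon of the antisense gene Ptgs2os. For Lta4h and Hpgds the first transcribed bases were found in no GENCODE transcript of the gene. GAGGAA does not overlap the other motifs in the 2 windows printed. A match is a description of letters, not of binding.

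Among the members, fresh wild-type cells carried the leukotriene genes at far higher levels than most of the prostanoid genes. Per kilobase of exon (GENCODE gene models), mean levels in the 10-week wild type were 327 CPM for Alox5ap, 219 for Ltc4s, 141 for Alox5 and 72.4 for Lta4h. Tbxas1, the thromboxane synthase, followed at 48.6 CPM per kilobase. The other members were much lower on that scale: Ptges at 1.88, Hpgds at 1.69, Ptgs1 at 1.20, Ptgs2 at 0.0754 and Alox15 at 0.0329. No source used here gives the annotation the authors counted on, so these lengths are an approximation. Antisense genes with overlapping exons are annotated for Alox5ap, Ltc4s, Ptgs1 and Tbxas1, and since the strand setting is not given either, reads from these partners cannot be told apart from the members' own.

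**Figure D1:**
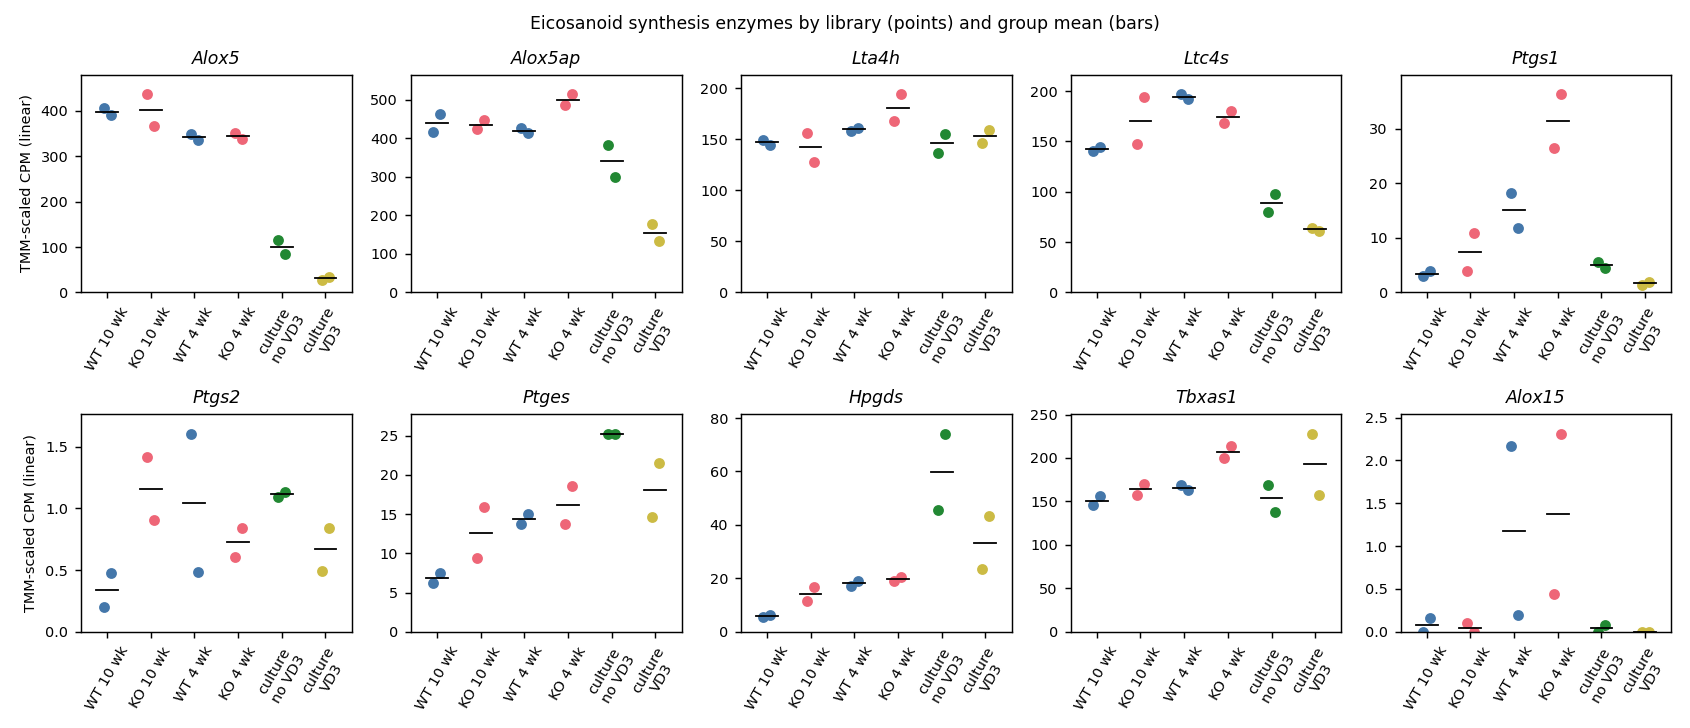
Level of each of the 10 members in each of the 12 libraries, in CPM on linear axes from 0, 1 panel per gene; points are libraries and bars are group means (n = 2). Alox5 runs from 28.3 CPM with vitamin D3 to 436 CPM in fresh cells, Lta4h stays between 128 and 194 CPM, and Ptgs1 is highest at 4 weeks.

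The members differed widely in how far they moved across the 6 groups. The highest group mean exceeded the lowest by 18.9-fold for Ptgs1, 12.7-fold for Alox5 and 10.2-fold for Hpgds. The same ratio was 1.37 for Tbxas1 and 1.27 for Lta4h, the hydrolase that makes leukotriene B4. For Alox5 the order of the group means was 10-week knockout, 10-week wild type, 4-week knockout, 4-week wild type, untreated culture and vitamin D3. The neighbours in that order within each age overlapped between libraries, while the 2 culture groups stood apart from each other and from the fresh cells.

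With vitamin D3 in culture the first steps of the leukotriene branch were lower. Of the 10 members, 4 fell, Alox5, Alox5ap, Ltc4s and Ptgs1, and none rose. Over all genes tested, 10.6% passed the test in this comparison and 5.63% passed it downwards. The libraries of the 2 groups did not overlap for 7 of the 10 members, against 48.9% of all genes. The median log2 fold change was -0.80 over the 10 members, -0.76 without Alox15, which had no count in the treated libraries, and 0 over all genes.

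Alox5, the 5-lipoxygenase itself, was at 114.5 and 84.9 CPM in the untreated cultures and at 28.3 and 34.9 CPM with vitamin D3. Every treated library lay below both untreated ones. The log2 fold change was -1.66 ± 0.154 (SE), a 3.17-fold lower level, with an adjusted p of 6.47e-05 (edgeR quasi-likelihood test, Benjamini-Hochberg adjustment over all genes). Among pairs of the same series of title numbers the log2 difference was -2.00 in the lower-numbered series and -1.27 in the higher one.

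Alox5ap, whose protein presents arachidonic acid to 5-lipoxygenase, was at 381.8 and 300.6 CPM without vitamin D3 and at 177.6 and 132.8 CPM with it. The groups again did not overlap. The change on the log2 scale was -1.14 ± 0.147 (edgeR adjusted p = 5e-04), and it was -1.10 and -1.18 within the 2 series of titles. Alox5 and Alox5ap passed the test under all 13 alternative settings and left-out libraries.

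Ltc4s, the synthase of leukotriene C4, was at 80.1 and 97.7 CPM without vitamin D3 and at 64.5 and 61.3 CPM with it. The groups did not overlap, but the distance was small. The difference on the log2 scale was -0.50 ± 0.136 (edgeR adjusted p = 0.0382). The call was lost when only the 4 culture libraries entered the fit (adjusted p = 0.0988) and when any library but the first untreated one was left out (0.137 to 0.193).

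Ptgs1, the constitutive cyclooxygenase, was at 5.58 and 4.53 CPM without vitamin D3 and at 1.43 and 1.90 CPM with it. These levels rest on 102 and 56 counts against 29 and 27, and the groups did not overlap. The log2 fold change was -1.63 ± 0.467 (edgeR adjusted p = 0.0457). Without any 1 of the 4 culture libraries the adjusted p was 0.0706 to 0.298.

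The remaining members did not pass the edgeR test. Lta4h was at 136.7 and 154.9 CPM without vitamin D3 and at 146.5 and 159.3 CPM with it, and the groups overlapped. Its log2 difference was 0.07, with a 95% interval of -0.20 to 0.33 that leaves out the changes measured for Alox5 and Alox5ap. Tbxas1, the thromboxane synthase, overlapped too, at 168.6 and 138.2 CPM without and 228.0 and 157.1 CPM with vitamin D3 (log2 difference 0.33, 95% interval -0.01 to 0.67, edgeR adjusted p = 0.234). Without the second vitamin D3 library the Tbxas1 difference was 0.58 and passed (0.0203).

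Hpgds, the prostaglandin D2 synthase of blood and immune cells, was at 45.5 and 74.2 CPM without vitamin D3 and at 23.6 and 43.3 CPM with it. Its 2 groups did not overlap, and the log2 difference was -0.84 ± 0.277 (edgeR adjusted p = 0.0782), with -0.94 and -0.77 within the 2 title series. It passed by the DESeq2 Wald test (0.0227), and by edgeR without the first untreated library (0.0355) or the second vitamin D3 library (0.0117). Ptges, the inducible prostaglandin E2 synthase, had 25.2 and 25.3 CPM against 14.6 and 21.5 CPM, a log2 difference of -0.49 (adjusted p = 0.268). Ptgs2, the inducible cyclooxygenase, had only 20 and 14 counts against 10 and 12.

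**Figure D2:**
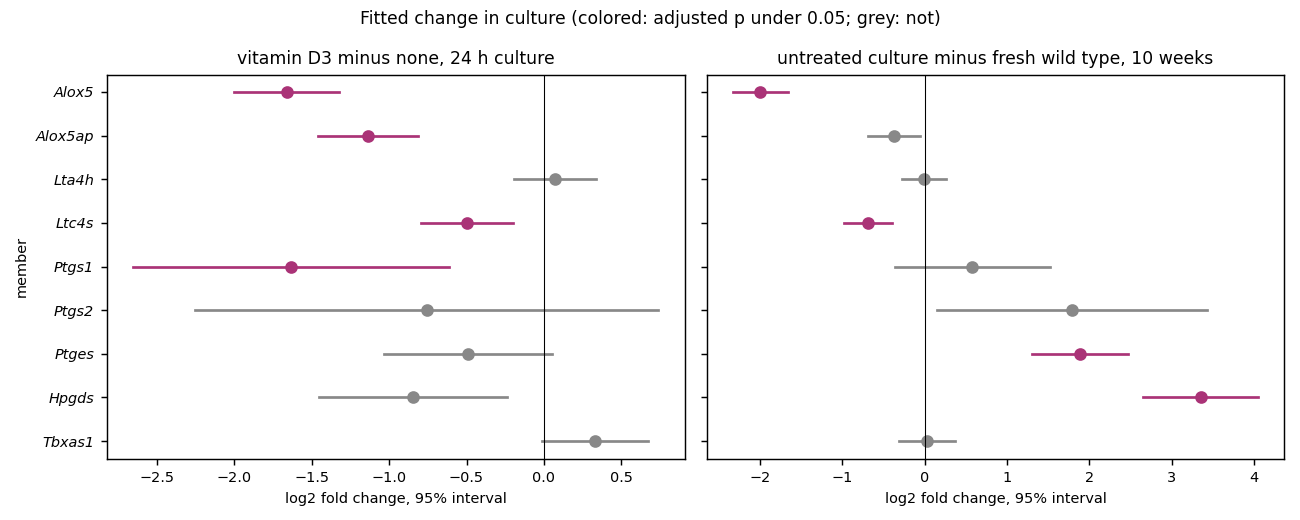
Fitted log2 fold change with its 95% interval for 9 members (Alox15 left out for its low counts), vitamin D3 against none on the left and untreated culture against fresh 10-week wild type on the right; both use the same untreated cultures. Coloured points passed the test at an adjusted p under 0.05: on the left Alox5, Alox5ap, Ltc4s and Ptgs1 lie below 0, and on the right Alox5 and Ltc4s lie below 0 while Ptges and Hpgds lie above.

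Markers of other cells were read beside these results. Summed over 8 markers of monocytes and interstitial macrophages, the untreated cultures held 171.9 and 234.7 CPM and the treated ones 69.9 and 113.3 CPM, mostly from Fcgr4 (mean 146.7 against 67.5 CPM, adjusted p = 0.0718 by edgeR) and Treml4 (48.3 against 18.6 CPM), the 1 of 7 tested that passed. Over 10 T, NK and B cell markers the sums were 218 to 225 CPM without vitamin D3 and 127 to 138 CPM with it, but nearly all of this was Cd2 (mean 221 against 127.5 CPM), the 1 of 7 tested that was lower. Every other gene of that list had a mean under 3 CPM in culture, and Klrb1c, at 0.123 against 2.83 CPM, was higher. Neutrophil markers, 9 in the table, summed to 76.3 to 82.6 CPM without and 60.8 to 65.7 CPM with vitamin D3, with 1 of 4 tested lower, Csf3r. The part of these cells in the members' results was not tested. Fewer cells of a type and less RNA per cell cannot be told apart in such bulk libraries. Platelet and megakaryocyte markers, from cells rich in Ptgs1 and Tbxas1, summed to at most 2.35 CPM in every library. The mast cell and basophil markers Mcpt4, Mcpt8 and Fcer1a were at 0 in all 12 libraries, and the whole list of 11 summed to at most 0.324 CPM in culture and 5.46 CPM in fresh cells. The eosinophil granule genes Epx and Prg3 were also at 0 everywhere, and the 5 eosinophil markers summed to at most 3.25 CPM. The 3 markers of large peritoneal-type macrophages summed to at most 3.89 CPM in any library.

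Around the members, the rest of the eicosanoid pathway changed in both directions with vitamin D3. Of 57 listed genes, 39 were tested, and 5 rose and 8 fell. By role, 2 of 9 genes listed under arachidonate release rose and 1 fell. The 2 were Pla2g4a and Pla2g7, a platelet-activating factor acetylhydrolase that was listed there with the phospholipases. Of 10 other synthases 1 rose and 1 fell, 2 of 9 turnover genes rose and 3 fell, and 3 of 9 receptors fell with none higher. The list's median log2 fold change was -0.25, against 0 over all genes.

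Ephx2, the soluble epoxide hydrolase that degrades epoxides of arachidonic acid, was at 1.26 and 0.891 CPM without vitamin D3 and at 12.1 and 9.20 CPM with it. It rose 9.75-fold (log2 fold change 3.29 ± 0.438, edgeR adjusted p = 0.000595). Fpr2, a receptor of formyl peptides that also binds lipoxin A4, fell from 40.9 and 25.7 CPM to 10.0 and 12.4 CPM (log2 -1.59, adjusted p = 0.000419). Neither gene's groups overlapped.

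Cyp4f16, of the cytochrome P450 family that hydroxylates leukotrienes and other fatty acids, fell by 0.94 on the log2 scale (edgeR adjusted p = 0.000183). Mgst3, a microsomal glutathione transferase related to Ltc4s, fell by 0.89 (adjusted p = 0.003). Pla2g4a, the cytosolic phospholipase A2 that supplies arachidonic acid, was at 46.0 and 43.0 CPM without vitamin D3 and at 64.9 and 57.3 CPM with it. It rose by 0.46 on the log2 scale (adjusted p = 0.0394), while Alox5 downstream of it fell. Hpgd, which inactivates prostaglandins, had 39 and 9 counts without and 6 and 1 with vitamin D3 (adjusted p = 0.102).

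After their values were seen, 2 enzymes that trim leukotriene C4 and its product were also looked up. Ggt1 and Dpep1, also in the list, had 12 and 2 counts over all libraries and were not tested. Ggt5, which makes leukotriene D4 from C4, was at 6.35 and 2.67 CPM without vitamin D3 and at 1.03 and 0.983 CPM with it (log2 -2.18 ± 0.390, edgeR adjusted p = 0.00404). Dpep2, a dipeptidase that makes leukotriene E4 from D4, was at 127.4 and 106.1 CPM without and at 53.4 and 59.7 CPM with vitamin D3 (log2 -1.05 ± 0.208, adjusted p = 0.00764). Both fell, and neither gene's groups overlapped, but the untreated level of Ggt5 rests on 116 and 33 counts. In the other direction, the turnover gene Ptgr1 was at 43.3 and 32.6 CPM without and at 60.2 and 53.5 CPM with vitamin D3.

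**Figure D3:**
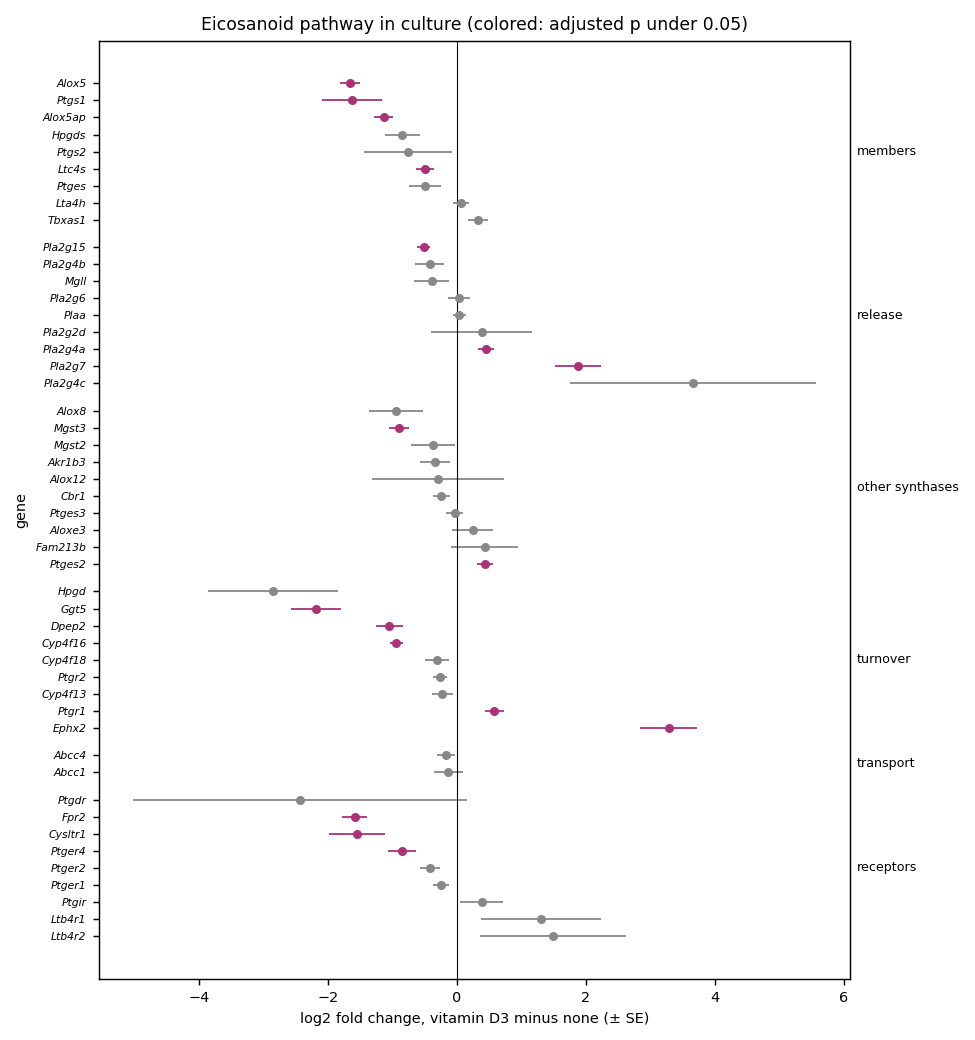
Log2 fold change of vitamin D3 against none in culture, with SE bars, for the members other than Alox15 and the 39 tested pathway genes grouped by role. Among the genes that passed the test, Ephx2 (3.29) and Pla2g7 (1.89) are the highest and Ggt5 (-2.18) and Alox5 (-1.66) the lowest; receptors and turnover genes lie on both sides of 0.

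Between fresh and cultured wild-type cells members were called in both directions. Against fresh 10-week wild type, untreated cultures had 2 members lower, Alox5 and Ltc4s, and 2 higher, Ptges and Hpgds. Over all genes 42.4% passed the test, with 21.2% lower and 21.2% higher, so the members' share of calls was near the background. Against fresh 4-week wild type, 3 members were lower, Alox5, Ltc4s and Ptgs1, and Ptges and Hpgds were again higher. Over all genes 39.7% passed there, 19.5% lower and 20.1% higher. The medians over the members were 0.01 and -0.21, against -0.02 over all genes in both comparisons, and 0.03 and -0.13 without Alox15. Libraries did not overlap for 7 and 8 members, against 72.4% and 70.7% of all genes, and the 8 include the low-count Alox15. These comparisons use the same untreated cultures as the vitamin D3 comparison, and the ages of the cultured cells' donors are not given.

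Alox5 stood at 405 and 391 CPM in fresh 10-week wild type and at 349 and 336 CPM in 4-week wild type, far above the 114.5 and 84.9 CPM of the cultures. The log2 fold changes were -1.99 ± 0.152 and -1.78 ± 0.151 (edgeR adjusted p = 1.68e-06 and 3.82e-06). Alox5ap, its partner, was at 417 and 463 CPM at 10 weeks and at 426.5 and 413 CPM at 4 weeks, above both cultures. Its log2 differences, -0.37 and -0.30, did not pass the test (adjusted p = 0.0604 and 0.123). Against 10 weeks it passed by DESeq2 (0.0391), with the strict filter (0.0396), without a filter (0.0168) and without the first untreated culture (0.0194), and against 4 weeks without that same culture (0.0416). Scaled by library size alone the differences were -0.65 and -0.58 and passed it (0.00314 and 0.0064), a scaling that moved the median of all genes to -0.31 and -0.30.

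Ltc4s was at 140.9 and 144.8 CPM in fresh cells of 10 weeks and at 196.8 and 192.2 CPM at 4 weeks, again above both cultures. It fell by 0.69 and by 1.13 on the log2 scale (edgeR adjusted p = 0.00174 and 5.17e-05). Lta4h and Tbxas1, in contrast to these, had log2 differences between -0.13 and 0.03, and none of the 4 passed the edgeR test. With library size alone Lta4h against 4 weeks was at -0.42 and passed (0.0141).

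Hpgds moved the other way. It was at 5.37 and 6.41 CPM in fresh 10-week wild type, 17.3 and 19.0 CPM in 4-week wild type, and 45.5 and 74.2 CPM in the untreated cultures. No fresh wild-type library reached the culture range. It rose 10.2-fold against 10 weeks and 3.28-fold against 4 weeks (edgeR adjusted p = 8.68e-06 and 0.000586). Ptges rose 3.70-fold against 10 weeks (6.20 and 7.52 CPM in fresh cells, adjusted p = 0.000169). Against 4 weeks, with 13.8 and 14.97 CPM in fresh cells, it rose 1.75-fold (adjusted p = 0.0232), a call that ended when any 1 of these 4 libraries was left out (0.0639 to 0.115) and with library size alone (0.113).

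Ptgs1 depended on which age the cultures were set against. Its 5.58 and 4.53 CPM lay above the 3.003 and 3.88 CPM of 10-week cells (log2 difference 0.58, edgeR adjusted p = 0.303) and below the 18.2 and 11.8 CPM of 4-week cells (log2 -1.55, adjusted p = 0.00881). The latter call ended without the second untreated culture (0.0533) or the first 4-week library (0.0639). Among markers, the summed epithelial level was 45.0 to 222 CPM in fresh wild type and 11.2 to 13.8 CPM in untreated culture. Of the 15 alveolar macrophage markers, 8 fell and 4 rose in culture against either age. Car4 went from 240.8 CPM at 10 weeks to 0.814 CPM, and Fabp5 from 203 to 3320 CPM. Their part in the members' results was not tested.

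Of the 39 pathway genes, 12 rose and 10 fell in culture against 10 weeks, and 13 rose and 9 fell against 4 weeks. Cyp4f18, an enzyme that hydroxylates leukotriene B4 in mouse myeloid cells, fell by 3.34 and by 3.40 on the log2 scale (edgeR adjusted p = 1.49e-07 and 1.24e-07). Ptgir, the prostacyclin receptor, was at 9.06 and 11.001 CPM at 10 weeks and at 203.7 and 157.8 CPM in culture (log2 4.18 ± 0.403, adjusted p = 9.34e-06). Pla2g7, the platelet-activating factor acetylhydrolase, rose by 4.97 and 4.62 (adjusted p = 5.21e-06 and 7.38e-06). Fpr2, the listed receptor with the highest CPM in fresh cells, fell by 2.43 and by 2.79, and Ptger2, a prostaglandin E2 receptor, fell by 1.40 and by 1.55 (adjusted p of 1.69e-05 or less in all 4 cases).

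Between the ages of fresh cells, edgeR called 2 members lower at 10 than at 4 weeks in wild type, Ptgs1 and Hpgds, and none higher. Over all genes 2.11% passed the test and 0.706% were lower. Libraries did not overlap for 9 of the 10 members, against 54.6% of all genes, and the members' median was -0.76 (-0.45 without Alox15, whose 10-week level rests on 2 counts) against 0.00 over all genes (-0.0031). Alox15, kept by the filter through its 4-week counts, is among the 9, by 4 counts in its lower 4-week library against 2 in the higher 10-week one. In the libraries labelled knockout, 1 member was lower at 10 weeks, Ptgs1, where 9.73% of all genes passed the test and 4.83% were lower. There, 8 members did not overlap, Alox15 again among them, against 57.3% of all genes, and the median was -0.34 (-0.33 without Alox15) against 0.01.

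Ptgs1 was at 18.2 and 11.8 CPM in 4-week wild type and at 3.003 and 3.88 CPM at 10 weeks. Knockout-labelled libraries held 26.5 and 36.3 CPM of it at 4 weeks and 3.90 and 10.9 CPM at 10 weeks. In both genotypes every 10-week library lay below every 4-week library. The log2 fold changes were -2.14 ± 0.412 and -2.13 ± 0.390 (edgeR adjusted p = 0.0247 and 0.00686), and their difference was 0.0040, with a 95% interval of -0.93 to 0.93.

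All 4-week libraries carry titles of the higher-numbered series, and within it the log2 difference of Ptgs1 was -1.80 in wild type and -1.46 in the libraries labelled knockout, each from 1 female 10-week library. Without both female libraries the log2 fold changes were -2.31 and -3.002. That fit leaves 1 library in each 10-week group, from the lower-numbered series, so age and title series cannot be told apart in it. The 1 labelled knockout is the library whose description code names wild type. In wild type the call ended without either 10-week library (0.246 and 0.0813) or without the first 4-week library (0.149). In the libraries labelled knockout it ended without the second 4-week library (0.07).

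Hpgds was at 17.3 and 19.0 CPM in 4-week wild type and at 5.37 and 6.41 CPM at 10 weeks, with no overlap. On the log2 scale it fell by 1.64 ± 0.319 (edgeR adjusted p = 0.0252). The call ended without the female libraries (0.0739), when the 10-week pair with conflicting codes was exchanged (0.198) and when any 1 wild-type library was left out (0.0806 to 0.246). Knockout-labelled libraries held Hpgds at 19.1 and 20.4 CPM when 4 weeks old and at 11.7 and 16.6 CPM when 10 weeks old (log2 difference -0.50, adjusted p = 0.314). Ptges in wild type was at 13.8 and 14.97 CPM at 4 weeks and at 6.20 and 7.52 CPM at 10 weeks (log2 difference -1.08, edgeR adjusted p = 0.0615), and it passed by DESeq2 (0.00655) and on the 2 wild-type groups alone (0.0244).

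Alox15 had very low counts, and it was kept by the filter for its 4-week counts, so its levels are given as a description. Wild-type libraries held 31 and 4 counts at 4 weeks and 0 and 2 at 10 weeks, a ratio of levels of 16.5 with an exact 95% interval of 4.23 to 141. Libraries labelled knockout held 8 and 33 counts at 4 weeks and 2 and 0 at 10 weeks, a ratio of 20.01 (5.20 to 171). These intervals cover counting error only, and within each 4-week group 1 library held most of the counts. The edgeR test across libraries did not pass (adjusted p = 0.215 and 0.122). Untreated cultures held 0 and 1 counts and vitamin D3 cultures none.

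No leukotriene member passed the edgeR test for age in either genotype. Alox5 was at 391 to 405 CPM in wild type at 10 weeks and 336 to 349 CPM at 4 weeks (log2 difference 0.22, 95% interval -0.10 to 0.53). Ltc4s was at 140.9 and 144.8 CPM against 196.8 and 192.2 CPM (log2 difference -0.45, edgeR adjusted p = 0.104). It passed by DESeq2 (0.0367) and by edgeR on the 2 wild-type groups alone (0.0318). In the libraries labelled knockout Lta4h had a log2 difference of -0.34 (edgeR adjusted p = 0.0995) and passed by DESeq2 (0.0489). Of the 39 pathway genes, 1 was lower at 10 weeks in wild type, Ptgir (log2 -1.78, adjusted p = 0.0395). In the libraries labelled knockout 3 were lower: Ptgr1, the reductase that inactivates prostaglandins and leukotriene B4 (-1.54, adjusted p = 0.000249), Fpr2 (-0.70, 0.0301) and Cyp4f16 (-0.37, 0.0407). The 8 epithelial markers summed to 179.6 and 222 CPM in wild type at 10 weeks and to 45.0 and 91.5 CPM at 4 weeks, with 1 of 8 higher, and Epcam made up most of the gap (mean 146.4 against 25.8 CPM). Of the 15 alveolar macrophage markers, 1 was lower at 10 weeks in wild type and none higher. It was Car4 (mean 240.8 against 609.9 CPM, edgeR adjusted p = 0.00184). In the libraries labelled knockout 2 were lower, Car4 (305.8 against 639.3 CPM) and Marco (216 against 2141 CPM), and 2 higher. Of 4 neutrophil markers tested, S100a9 was lower in both genotypes, with group means up to 2.77 CPM. Another 1 was higher in the libraries labelled knockout. The part of these markers in the age results was not tested.

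No member passed the test between genotypes. At 10 weeks 0 of 10 did by edgeR, where 0.11% of all genes did, and 4 members had an unadjusted p under 0.05. At 4 weeks it was 0 of 10 beside 0.667%, with 1 at an unadjusted p under 0.05. Over both ages it was 0 beside 0.996%, with 3 unadjusted, and for the difference between the ages 0 beside 0.188%, with 3. The DESeq2 Wald test called 1, 0, 2 and 0 members in these 4 comparisons. Libraries did not overlap for 6 members at each age, against 40.6% and 48.6% of all genes. The members' medians were 0.19 and 0.17 (0.26 and 0.17 without Alox15), against -0.01 over all genes at both ages.

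Alox5 had the smallest log2 difference of the 10 members between genotypes at each age. The 10-week wild type held 405 and 391 CPM, and the knockout-labelled libraries of that age held 436 and 366 CPM. At 4 weeks the values were 349 and 336 CPM against 352 and 339 CPM, and the groups overlapped at both ages. The log2 difference was 0.01 at each age, with 95% intervals from -0.31 to 0.33. Over both ages it was 0.01 (-0.21 to 0.24), an interval that leaves out a change of the size seen with vitamin D3.

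Prostanoid genes had the larger, uncalled differences. Hpgds had 5.37 and 6.41 CPM in 10-week wild type against 11.7 and 16.6 CPM in knockout-labelled cells of that age, without overlap. Its log2 difference was 1.26 ± 0.325 (edgeR adjusted p = 0.199), it passed DESeq2 (0.00521), and it was 1.05 and 1.31 within the 2 title series. With the conflicting pair exchanged the difference was 0.42 (adjusted p = 0.993). At 4 weeks Hpgds was at 17.3 and 19.0 against 19.1 and 20.4 CPM (log2 difference 0.12), and the difference between the ages was 1.14 ± 0.435 (adjusted p = 0.519).

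Ptgs1 had the same log2 difference, 1.07, at both ages. The 10-week wild type had 3.003 and 3.88 CPM and the knockout-labelled libraries had 3.90 and 10.9 CPM, so the groups did not overlap but nearly met. The 4-week values, 18.2 and 11.8 against 26.5 and 36.3 CPM, stood clearly apart. The edgeR adjusted p was 0.425 and 0.269, and over both ages 0.115 (1.07 ± 0.281). At 10 weeks the difference was 0.20 without the second library labelled knockout, the female one, and 1.68 without the first. Without that first library the comparison over both ages passed the test (1.38, adjusted p = 0.0108).

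**Figure D4:**
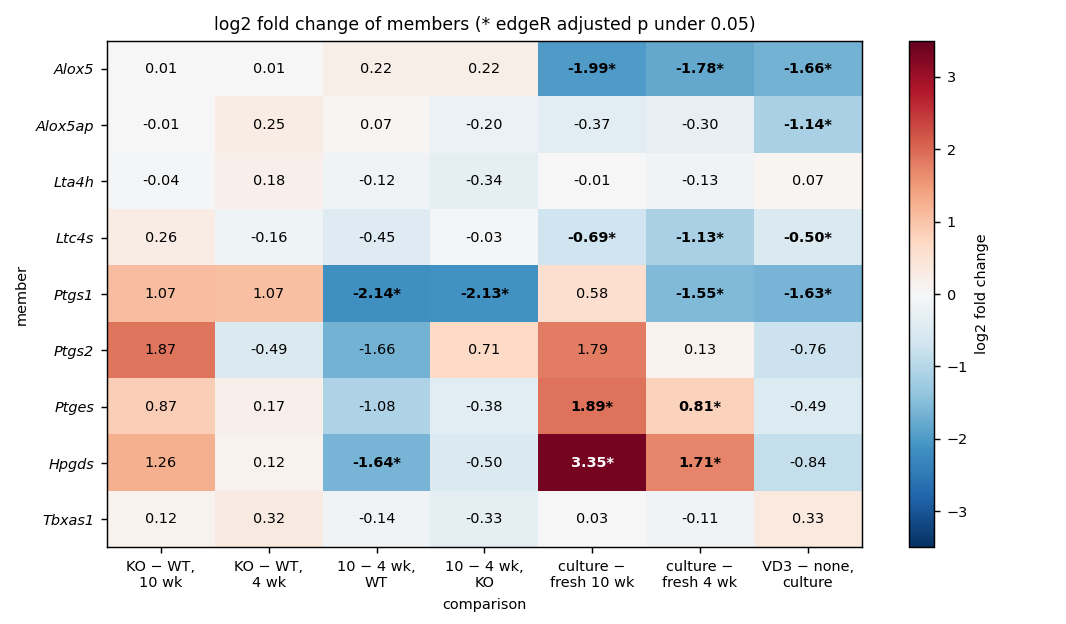
Fitted log2 fold change of 9 members (rows, without Alox15) in 7 comparisons (columns), colour from lower to higher, with an asterisk where the adjusted p is under 0.05. The genotype columns hold no asterisk. Both age columns hold one at Ptgs1, and the wild-type age column also at Hpgds. The 3 culture columns hold them at Alox5 and Ltc4s throughout.

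Ptges had 6.20 and 7.52 CPM in 10-week wild type against 9.36 and 15.9 CPM in knockout-labelled cells, without overlap (log2 difference 0.87, edgeR adjusted p = 0.291). Ptgs2 had 4 and 6 counts against 29 and 10, a ratio of levels of 4.07 with an exact 95% interval of 1.99 to 9.14 for counting error only (edgeR adjusted p = 0.426). The 29 counts are those of the library whose description code names wild type. With the conflicting pair exchanged, the groups would hold 4 and 29 counts against 6 and 10, and would overlap. At 4 weeks the Ptgs2 log2 difference was -0.49 (edgeR adjusted p = 0.841). Tbxas1 at 4 weeks was at 168.8 and 162.7 CPM against 200.2 and 213.3 CPM, without overlap (log2 difference 0.32, adjusted p = 0.447). Alox5ap, Lta4h and Ltc4s had log2 differences from -0.16 to 0.26 over the 2 ages.

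Of the 39 pathway genes none passed the genotype test at 10 weeks. At 4 weeks 1 rose, Ptgr1, by 1.07 ± 0.152 (edgeR adjusted p = 0.00788), and 1 fell, Pla2g15, the lysosomal phospholipase A2 abundant in alveolar macrophages, by 0.54 (adjusted p = 0.0378). Over both ages only Pla2g15 passed, at -0.35 (0.045), and the genotype difference of Ptgr1 was lower at 10 than at 4 weeks by 1.31 (adjusted p = 0.0482). Summed dendritic cell markers were 35.3 to 100.3 CPM in the 4 fresh wild-type libraries and 19.1 to 25.1 CPM in the 4 labelled knockout, and 3 of 7 tested were lower over both ages. Epithelial markers at 10 weeks summed to 179.6 to 222 CPM in wild type and 297 to 411 CPM in the libraries labelled knockout, with 1 of 8 higher, and Scgb1a1 made up most of the gap (mean 30.2 against 158 CPM). Of the 15 alveolar macrophage markers, Marco was higher in the libraries labelled knockout at 4 weeks (mean 2141 against 449 CPM, edgeR adjusted p = 0.00674). None passed at 10 weeks, where the Marco means were 216 against 348 CPM. The genotype difference of Marco was lower at 10 than at 4 weeks by 2.94 (edgeR adjusted p = 0.0206). Over both ages 1 marker was lower, Fabp1 (log2 -1.09, edgeR adjusted p = 0.0472). The part of these markers in the genotype differences was not tested.

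The genes whose levels followed a member most closely over the 12 libraries were ranked by the root mean square difference of centred log2 levels. For Alox5, whose own SD was 1.37, they were Icosl (0.226), Pltp (0.238) and Klra2 (0.257). For Hpgds (SD 1.02) they were Acer3 (0.299) and the transcripts E230008N13Rik (0.418) and A730085K08Rik (0.447). For Ptgs1 (SD 1.31) the nearest were Tspan32 (0.582), Cspg4 (0.628) and Adcy4 (0.643), so no gene lay as near to it as those named lay to Alox5. The groups of the study set these patterns, and likeness over 12 libraries is a description.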

How the data were processed

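Raw counts per gene were deposited by the authors, together with a log2 table of 10631 genes that holds log2(CPM + 1) by its values and lists 8 of the 10 members, without Ptgs2 and Alox15. The submitters' processing notes name TopHat2, edgeR and build mm9. Versions, annotation, strand handling and the program used for counting are not given in the sources read. Columns were matched to samples by title, and groups follow the genotype and treatment labels.

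Each count was tested with edgeR 4.0.16 in R 4.3.3 (quasi-likelihood F test) on the deposited counts: TMM scaling, filterByExpr (minimum count 10, minimum total 15), all 12 libraries in 1 fit with 1 coefficient per group, 6 residual degrees of freedom, and Benjamini-Hochberg adjustment over 12748 genes with a threshold of 0.05. CPM is scaled by TMM. Intervals are at 95%. Within-series log2 differences use CPM plus 0.5. The code was tested on simulated data. The members and the gene lists (57 pathway genes, markers of 10 cell types) were chosen with earlier results of these data known. Pathway genes named are up to 4 per comparison with the smallest adjusted p, plus Pla2g4a, Hpgd and the most abundant receptor. Alternatives were DESeq2 1.42.0, its size factors, library size alone, no filter or a strict one (at least 5 CPM in 2 libraries), fitting the compared groups alone, a replicate block, exchange of the conflicting pair, no female libraries, and each library left out. Gene positions are from GENCODE M21 and promoters from RefSeq, both GRCm38, and are not the files' build.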

Additional observations from a re-analysis of the deposited data

How the results depend on the processing

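Of 1222 member results under an alternative, 1149 kept their side of the threshold, 26 were no longer called, 47 became called and 0 called values reversed. Of the 1149, 79 changed sign with neither value called. Genotype calls depended on the model. At 10 weeks (0 members in the report) there were 3 without the filter and 1 (Hpgds) by DESeq2. At 4 weeks (0) there were 1 without the filter and 3 (Alox5ap, Ptgs1, Tbxas1) in a fit on these groups alone. Over both ages (0) there were 3 without the filter, 2 by DESeq2, 1 on these groups alone, and 0 to 1 with a library left out; the difference between ages (0) had 1 without the filter. For age in wild type (2 members) there were 5 without the filter, 4 by DESeq2, 4 on these groups alone, 1 with the pair exchanged, 1 without female libraries and 0 to 1 with a library left out; for the libraries labelled knockout (1) there were 3, 2 by DESeq2, and 0 to 1. With a library left out, vitamin D3 gave 2 to 4 members and culture 4 to 5 and 3 to 5. Counts over all genes moved too. For genotype, 14 at 10 weeks ran from 1 to 503, 85 at 4 weeks from 26 to 690, 127 over both ages from 24 to 791, and 24 for the difference between ages from 5 to 392. For age, 269 ran from 58 to 1223 and 1240 from 242 to 2059. For vitamin D3, 1356 ran from 545 to 1989, and for culture 5399 ran from 3956 to 5992 and 5055 from 3705 to 5804. Library size alone moved the median of all genes in culture against fresh cells to -0.31 and -0.30. The cause of these moves was not tested. In the deposited log2 table, 5 of the 8 members listed kept both their highest and their lowest group.

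Replicate numbers are shared in fresh cells, but the labels do not tie them to litters or days. In culture they are 1 and 2 without vitamin D3 and 1 and 3 with it. Deviations of same-numbered libraries correlated at 0.152 at 10 weeks and -0.156 at 4 weeks across genes, and at 0.331 in culture, where the series of title numbers stood in. A block of these terms entered the genotype and vitamin D3 comparisons. With it 1 member (Hpgds) was called at 10 weeks and 1 over both ages, and Hpgds was also called for vitamin D3 (edgeR adjusted p = 0.00183). The comparisons of ages and of culture with fresh cells used another block, 1 term for replicate number 2 over all groups. With that block Ptges was called for age in wild type (edgeR adjusted p = 0.0402). No call on a member was lost with either block.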
